A study of Mus musculus with 54 samples.

Results

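Livers in which BMAL1 had been restored were compared at ZT16 with livers of mice that lacked it. Among the genes with the largest differences, sulfotransferases of the Sult2a family, Cyp2a4 and Cyp2b13 were higher in Liver-RE than in KO, and Hsd3b5, Hectd2os and several glutathione S-transferases of the Gstm family were lower. Of the clock genes, Nr1d2 was higher, and Npas2 and Cry1 were lower. Of 21 genes tested on the unfolded protein and integrated stress response list, 7 were lower, among them Creld2, and 1 was higher. Over all genes tested 1.91% were lower and 0.691% higher. The lower count of the list was 3 after quantile normalization and 2 without the 20 most abundant genes. The comparison is between 6 of the 54 libraries of the series, namely the 3 Liver-RE and the 3 KO livers taken at ZT16, over genes with a mean of at least 0.5 FPKM in these 6 libraries. Of 18079 genes in the table, 11871 met this minimum and 6208 did not.

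Liver-RE mice carried the construct labelled BMAL1-stop-FL, in which BMAL1 is knocked out and reconstituted in the liver. KO mice were BMAL1 knockouts with no reconstitution, and WT mice were wild type. All were female C57BL/6J mice of 8 to 12 weeks on normal chow, fed freely in a light and dark cycle, with 3 livers for each genotype and harvest time. ZT counts hours from lights on, so that ZT16 lies in the dark phase, when mice feed. The recombinase and the promoter that restrict the reconstitution to the liver, and the part of the gene that is missing in KO, are named neither in the labels nor in the files. Libraries were made from whole liver, so a lower value cannot be told apart between fewer cells of a type and less RNA per cell.

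BMAL1, encoded by Arntl, pairs with CLOCK or NPAS2 and binds E-box sequences to switch on the genes for the period and cryptochrome repressors, the REV-ERB receptors and the D-box factor DBP. The repressors then silence their own activators, and the REV-ERB receptors repress Arntl, Npas2 and Cry1 through ROR response elements, which closes the loop. In the liver this oscillator reaches metabolism partly through the D-box factors DBP, TEF and HLF, which drive genes of drug and steroid metabolism. Much of the sex difference in rodent liver P450 and sulfotransferase genes is set by the temporal pattern of growth hormone secretion.

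From the smallest steps in the values, the depth of the 6 libraries was estimated at 26.3 to 41.8 M reads, with a median of 32.5 M. The hepatocyte markers summed to between 46487 and 50835 FPKM in Liver-RE and to between 36485 and 43129 FPKM in KO, so that the groups did not overlap. Alb makes up much of this sum, and most single markers lay the other way: 2 of 14 had a positive difference, the list median was -0.43, and 1 was higher and 5 lower at an unadjusted p under 0.05. The cholangiocyte markers summed to 14.3, 22.4 and 10.4 FPKM in Liver-RE, against 31.6, 77.5 and 32.7 FPKM in KO, again without overlap. Of the 3 cholangiocyte markers tested out of 8 listed, Spp1 had the largest difference, -1.60 on the log2 scale (limma adjusted p = 0.0617). The part of these cell type markers in the results was not tested. No single marker of hepatocytes, Kupffer cells, endothelial cells, stellate cells, cholangiocytes, lymphocytes, neutrophils or erythroid cells passed the test. The libraries differed in how much of the total went to Alb, the gene for serum albumin. Its share of the summed FPKM was 8.73%, 11.6% and 10.9% in Liver-RE replicates 1, 2 and 3, against 4.31%, 5.87% and 4.84% in KO. These shares did not overlap either, and their part in the counts given next was likewise not tested. On the adipocyte list 1 of 5 genes tested was higher (Adrb3), and on the exocrine pancreas list 1 of 2 was lower (Cela1). The other pancreas gene tested, Cela2a, went the other way, with a log2 difference of 0.30 that did not pass. The shares of all genes tested were 0.691% higher and 1.91% lower.

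With limma on log2(FPKM + 1) and Benjamini-Hochberg adjustment, 309 genes passed the threshold of 0.05, which is 2.6% of the genes tested. Of these, 82 genes (0.691%) were higher and 227 (1.91%) were lower in Liver-RE. Without adjustment, p was under 0.05 for 2901 genes (24.4%), 567 higher (4.78%) and 2334 lower (19.7%). The differences were at least 2-fold on this scale for 43 of the higher and 84 of the lower genes. The median log2 difference of all genes tested was -0.12. The balance between directions depended on scaling: the higher share of the calls was 26.5% as deposited, 50.4% (126 higher, 124 lower) after quantile normalization and 66.5% (179 higher, 90 lower) after rescaling without the 20 most abundant genes. The median of all genes then lay at -0.01 and at 0.07. None of the genes named here by a rule changed direction under any of the alternatives run, whereas the number of calls did change, from 30 to 148 higher and from 71 to 916 lower genes when a single library was left out. The most calls came without Liver-RE replicate 1 and the fewest without KO replicate 1.

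**Figure D1:**
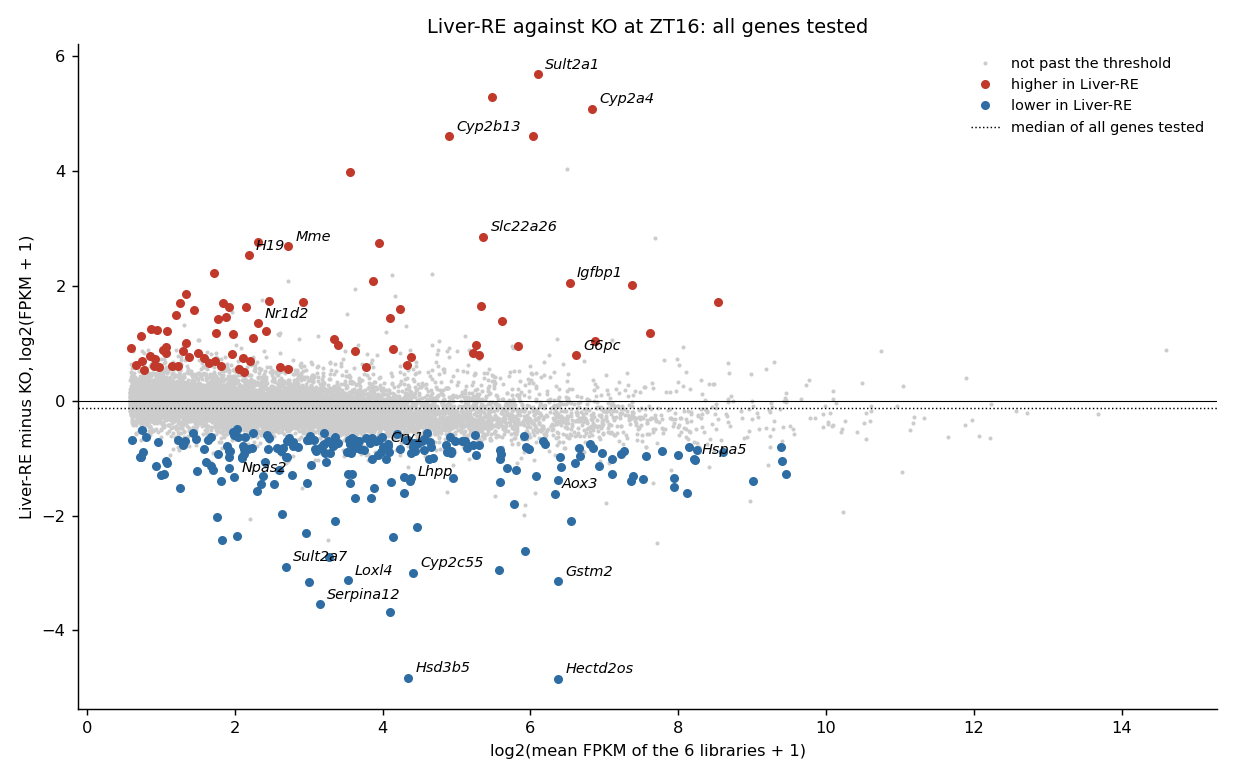
Log2 difference between Liver-RE and KO at ZT16 (vertical axis, log2(FPKM + 1)) against the mean level of the 6 libraries (horizontal axis) for the 11871 genes tested. Red points are the 82 genes higher and blue points the 227 genes lower in Liver-RE, and the dotted line is the median of all genes at -0.12.

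The genes called on the female-biased list were all higher, and those called on the male-biased list all lower, in Liver-RE. Of 28 female-biased genes tested, 7 were higher and 0 lower, and of 18 male-biased genes tested 0 were higher and 4 lower. The shares over all genes tested were 0.691% higher and 1.91% lower. The median log2 difference was 0.51 over the first list and -0.76 over the second, beside -0.12 over all genes. The female-biased list was mixed below the threshold, with 19 of 28 differences positive and 10 higher and 7 lower at an unadjusted p under 0.05. Cyp7b1 stands on both lists, so they are not fully separate. Its log2 difference was -0.74 and did not pass. With quantile normalization the counts were 6 higher female-biased and 4 lower male-biased genes. Leaving out a library gave 4 to 7 higher female-biased genes, with 4 without Liver-RE replicate 2 and without KO replicate 1, and 3 to 10 lower male-biased genes, with 10 without Liver-RE replicate 1.

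Sult2a1 (chromosome 7, 13796246 to 13837410, GRCm38.p6), a sulfotransferase of hydroxysteroids and bile acids, had the largest difference of all genes named. Its level was 17.4, 224 and 163 FPKM in Liver-RE replicates 1, 2 and 3, against 0.559, 0.768 and 0.801 FPKM in KO. Liver-RE replicate 1 was far below the other Liver-RE livers but above every KO liver. The log2 difference was 5.69 ± 0.77 (SE, n = 3 each; limma adjusted p = 0.00687), and WT livers had 218, 296 and 189 FPKM. With robust empirical Bayes the adjusted p was 0.0696.

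The neighbouring family members split by direction. Of 8 Sult2a genes tested, 6 were higher in Liver-RE (Sult2a1 to Sult2a6) and 2 were lower (Sult2a7 and Sult2a8), beside 0.691% and 1.91% of all genes tested. The family was chosen after its values were seen. Sult2a3, Sult2a4, Sult2a5 and Sult2a6 averaged 0.013, 0.023, 0.196 and 0.195 FPKM in KO, and Sult2a7 averaged 0.491 FPKM in Liver-RE. These members met the minimum of 0.5 FPKM only through the group where they were high. Their entry into the test thus depended on the difference itself, and the family counts are no separate support. Sult2a2 had 35.96, 132 and 91.9 FPKM in Liver-RE, against 1.08, 1.39 and 0.543 FPKM in KO, a log2 difference of 5.28 ± 0.40 (SE; limma adjusted p = 0.000301). Sult2a7 had 0.587, 0.333 and 0.554 FPKM in Liver-RE, against 14.6, 7.82 and 8.82 FPKM in KO, a log2 difference of -2.89 ± 0.20 (SE; limma adjusted p = 0.000156). Sult2a8 stood at 195, 120 and 109 FPKM in Liver-RE and at 387, 336 and 323 FPKM in KO. Part of the transcript sequence is shared within the family: 34.6% of the 100-base windows of Sult2a2, 16.6% of Sult2a5 and 11.4% of Sult2a1 occur in another member, whereas Sult2a3, Sult2a6, Sult2a7 and Sult2a8 share 0. Values of the sharing members are uncertain where the counting could split reads. The call of Sult2a3 was lost without KO replicate 1, 2 or 3 (adjusted p = 0.0992, 0.0651 and 0.0758 in limma), and that of Sult2a8 without Liver-RE replicate 2, KO replicate 1 or KO replicate 3 (0.0836, 0.0963 and 0.0517). That of Sult2a4 was lost without KO replicate 1 (0.0635).

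Genes of the P450 family were also among the highest. Cyp2a4 (chromosome 7, 26307192 to 26315088), a steroid hydroxylase, had 242, 335 and 87.1 FPKM in Liver-RE, against 4.99, 9.83 and 1.83 FPKM in KO (log2 difference 5.09 ± 0.55, SE; limma adjusted p = 0.00268). WT livers reached 1028, 916 and 816 FPKM, above every Liver-RE liver. Cyp2b13 had 69.6, 56.8 and 43.2 FPKM in Liver-RE, against 2.37, 1.32 and 0.596 FPKM in KO, and 8.93, 30.8 and 26.0 FPKM in WT (log2 difference between Liver-RE and KO 4.60 ± 0.27, SE; limma adjusted p = 5.25e-05). Both genes kept their call under each of the 16 alternatives. Within the Cyp2a family, 11.2% of the 100-base windows of Cyp2a4 and 8.59% of those of Cyp2a5 occur in another member. Values of these 2 genes are therefore uncertain where the counting could split reads. Further female-biased genes past the threshold were Cyp2b9, Cyp17a1, a steroid hydroxylase, and Acot3, an acyl-CoA thioesterase. These calls were lost when 1 of 2 libraries was left out: without Liver-RE replicate 2 the limma adjusted p was 0.0565 for Cyp2b9, 0.147 for Cyp17a1 and 0.0934 for Acot3, and without KO replicate 1 it was 0.061, 0.146 and 0.0968. Over all genes the calls then fell from 309 to 114 and to 101. Cyp17a1 was also lost without Liver-RE replicate 3 (0.101) or KO replicate 2 (0.107) and under both rescalings, and Acot3 without KO replicate 3 (0.0809).

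Other genes among the 12 highest were Slc22a26, an organic anion transporter, Mme, the membrane metalloendopeptidase neprilysin, and H19, an imprinted noncoding RNA of fetal liver. Slc22a26 had 83.4, 83.5 and 43.2 FPKM in Liver-RE, against 10.1, 17.7 and 2.98 FPKM in KO (log2 difference 2.86 ± 0.50, SE; limma adjusted p = 0.0219). Its call was lost without Liver-RE replicate 2 (0.0779) or KO replicate 1 (0.0746). Mme had 15.5, 11.2 and 4.93 FPKM in Liver-RE, against 0.439, 0.854 and 0.657 FPKM in KO (log2 difference 2.69 ± 0.32, SE; limma adjusted p = 0.00333). Every Liver-RE liver was above every KO liver for both genes, and none of the 309 genes called overlapped between the groups. H19 had 1.10, 8.41 and 11.6 FPKM in Liver-RE, against 0.086, 0.0571 and 0.112 FPKM in KO, with a limma adjusted p of 0.0478. Without Liver-RE replicate 1 the adjusted p of H19 was 0.000127. Leaving out Liver-RE replicate 2 or 3 or KO replicate 1, 2 or 3 gave H19 adjusted p-values of 0.148, 0.0879, 0.146, 0.102 and 0.111. The call of H19 was also lost under both rescalings.

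**Figure D2:**
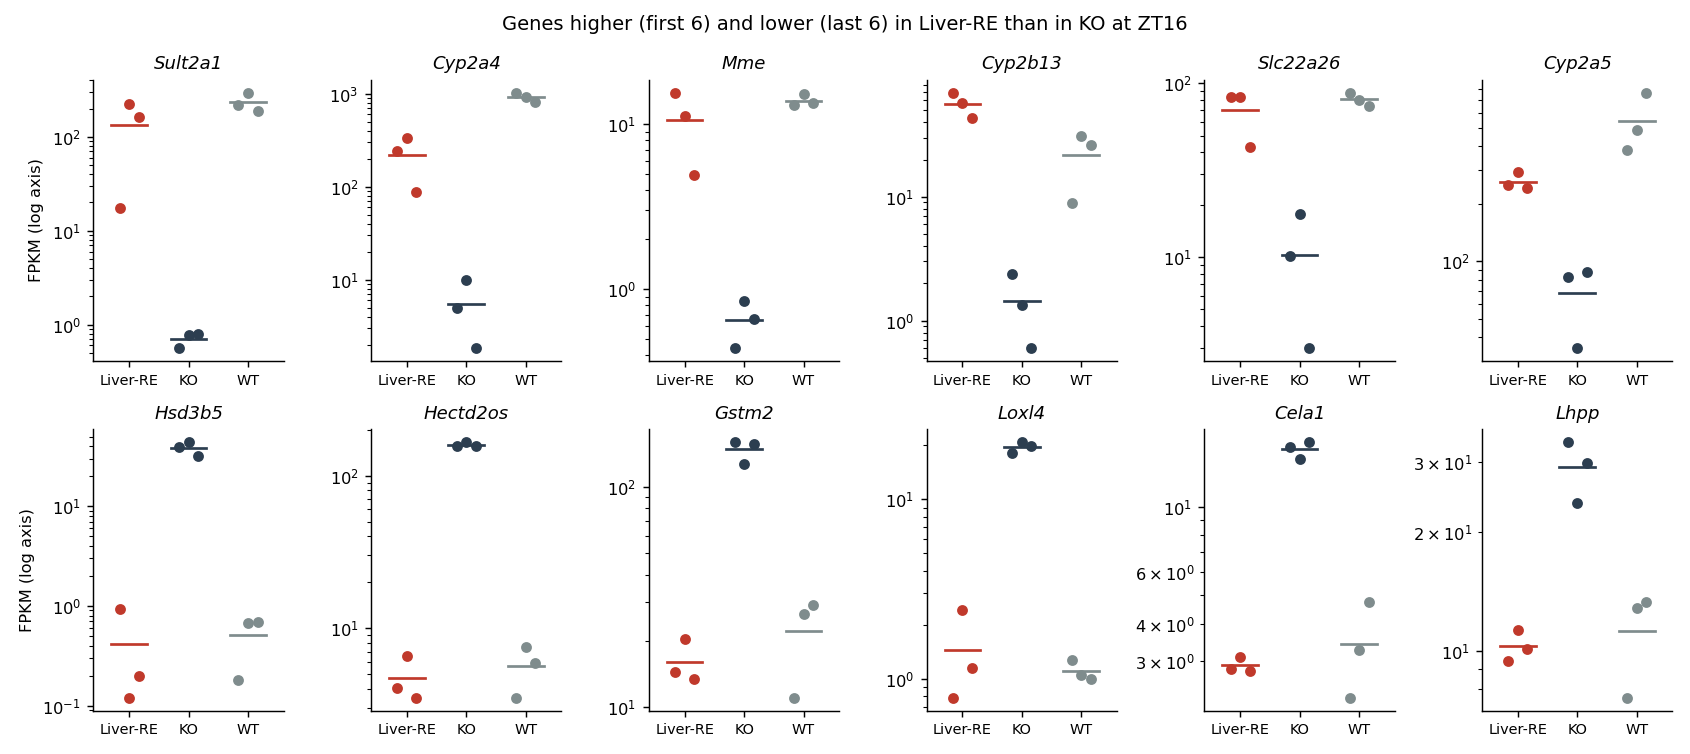
FPKM on log axes in each ZT16 library of Liver-RE, KO and WT (points) with the group mean (bars), for 6 genes higher and 6 genes lower in Liver-RE. In all 12 panels the 3 Liver-RE points lie on 1 side of the 3 KO points, which holds for all 309 genes called and is no separate result. For Sult2a1 replicate 1 of Liver-RE (17.4 FPKM) lies apart from the other 2 replicates.

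The D-box motif, the binding sequence of DBP, TEF and HLF, was searched in the promoters of the called genes. Promoter windows (250 bases before to 50 after the start, RefSeq, GRCm38.p6) were found for 61 of the 82 higher and 183 of the 227 lower genes. On either strand, 8 of the 61 higher genes (13.1%) held TTATGTAA, TTATGCAA or TTACGTAA: Cyp2a4, Cyp2a5, Slc22a26, G6pc, Ces1b, Ces1e, Ptgds and Gm19522. Of the lower genes 1 of 183 did (C9, 0.546%), beside 1.79% of the 9186 genes tested with a window and 2.10% of all genes with a window. Cyp2a4 and Cyp2a5, and Ces1b and Ces1e, are pairs of related genes and are not independent. The E-box CACGTG, the binding sequence of BMAL1 itself, was in 9.84% of the higher and 9.84% of the lower genes, beside 12.1% of the genes tested with a window. The ROR element TAGGTCA was in 3.28% of the higher and 4.37% of the lower genes, beside 2.55% of the genes tested with a window. The motif search was made after the calls were known and carries no test, and a match is not a measured binding site. The 3 promoters below belong to higher genes with the D-box in capitals (in Cyp2a4 it reads on the other strand, and in G6pc the second run of capitals is a ROR element, TAGGTCA on the other strand). They are Cyp2a4 (chr7:26306942-26307241, plus strand), Slc22a26 (chr19:7802618-7802917, minus strand) and G6pc (chr11:101367466-101367765, plus strand), each written 5′ to 3′ on the strand of the gene.
Cyp2a4: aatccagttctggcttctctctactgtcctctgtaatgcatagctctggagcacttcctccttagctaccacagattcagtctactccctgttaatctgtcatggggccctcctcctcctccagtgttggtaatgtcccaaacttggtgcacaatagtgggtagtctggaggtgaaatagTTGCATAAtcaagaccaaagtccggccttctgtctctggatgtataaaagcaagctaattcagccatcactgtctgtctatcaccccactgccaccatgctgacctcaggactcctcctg
Slc22a26: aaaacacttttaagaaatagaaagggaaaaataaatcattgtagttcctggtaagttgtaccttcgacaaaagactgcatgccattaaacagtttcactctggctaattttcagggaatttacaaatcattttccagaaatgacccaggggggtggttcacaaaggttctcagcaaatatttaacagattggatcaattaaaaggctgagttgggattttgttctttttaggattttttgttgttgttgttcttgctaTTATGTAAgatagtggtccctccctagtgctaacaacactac
G6pc: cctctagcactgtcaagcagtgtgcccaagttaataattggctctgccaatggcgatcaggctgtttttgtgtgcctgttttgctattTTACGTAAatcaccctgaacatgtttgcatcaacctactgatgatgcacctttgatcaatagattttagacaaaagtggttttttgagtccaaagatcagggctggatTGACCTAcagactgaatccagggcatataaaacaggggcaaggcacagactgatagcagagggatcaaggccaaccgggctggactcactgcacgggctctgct

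The D-box factors themselves did not pass the test at this hour. Dbp had 3.51, 2.23 and 2.19 FPKM in Liver-RE, against 2.56, 2.19 and 1.71 FPKM in KO, so that the groups overlapped (log2 difference 0.20 ± 0.17, SE; limma adjusted p = 0.473). Of the 4 D-box factors, 0 passed the limma test in either direction, and 0 had an unadjusted p under 0.05. In the mice taken at ZT4, Dbp averaged 36.2 ± 0.265 FPKM in Liver-RE and 1.74 ± 0.232 FPKM in KO (SD, n = 3 each). Cyp2a5, which shares the motif, had 250, 292 and 241 FPKM in Liver-RE, against 82.8, 35.1 and 87.6 FPKM in KO (log2 difference 2.02 ± 0.31, SE; limma adjusted p = 0.0143, and 0.0565 without Liver-RE replicate 2).

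Among the lower genes, Hectd2os and Hsd3b5 differed most. Hectd2os (chromosome 19, 36619418 to 36689479), a long noncoding RNA named for its place opposite Hectd2, had 4.09, 6.56 and 3.53 FPKM in Liver-RE, against 155, 165 and 157 FPKM in KO. The log2 difference was -4.84 ± 0.19 (SE, n = 3 each; limma adjusted p = 1.31e-05), and WT livers had 3.51, 7.56 and 5.93 FPKM. The library kit marked strand, but no source used here says whether the authors' counting used it, so reads of Hectd2 cannot be told apart from it. Hsd3b5 (chromosome 3, 98618636 to 98645534), a male-biased steroid dehydrogenase, had 0.929, 0.119 and 0.200 FPKM in Liver-RE, against 39.5, 43.8 and 31.6 FPKM in KO (log2 difference -4.83 ± 0.21, SE; limma adjusted p = 1.97e-05). WT livers had 0.179, 0.671 and 0.692 FPKM, in the range of Liver-RE. Every KO liver was above 30 FPKM, and every Liver-RE and WT liver was under 1 FPKM.

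The other male-biased genes past the threshold were Mup21, a major urinary protein, Elovl3, a fatty acid elongase, and Slco1a1, a bile acid and organic anion uptake transporter. Elovl3 had 0.991, 0.237 and 0.235 FPKM in Liver-RE, against 7.92, 8.73 and 24.2 FPKM in KO (log2 difference -3.16 ± 0.37, SE; limma adjusted p = 0.00313). Slco1a1 had 28.5, 5.40 and 5.04 FPKM in Liver-RE, against 87.9, 90.2 and 64.0 FPKM in KO. Replicate 1 of Liver-RE again stood apart, here above the other two. The log2 difference of Slco1a1 was -2.95 ± 0.52 (SE; limma adjusted p = 0.0234, and 0.000153 without that library). Its call was lost without Liver-RE replicate 2 (0.0791) or KO replicate 1, 2 or 3 (0.0949, 0.0609 and 0.0543).

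Glutathione S-transferases of the mu class fell together, with 6 of 7 Gstm genes tested lower and 0 higher, beside 1.91% and 0.691% of all genes tested. The family was chosen after its values were seen. Gstm2 (chromosome 3, 107981702 to 107986420) had 14.5, 20.4 and 13.4 FPKM in Liver-RE, against 160, 127 and 158 FPKM in KO (log2 difference -3.14 ± 0.18, SE; limma adjusted p = 5.25e-05). Gstm3 had 15.4, 20.8 and 11.5 FPKM in Liver-RE, against 101, 72.6 and 138 FPKM in KO. Gstm1, the most abundant member, had 496, 467 and 367 FPKM in Liver-RE, against 906, 862 and 959 FPKM in KO (log2 difference -1.05 ± 0.17, SE; limma adjusted p = 0.0191), a call lost without Liver-RE replicate 2, KO replicate 1 or KO replicate 3 (0.0717, 0.0949 and 0.0612). The alpha class gene Gsta4, which detoxifies lipid aldehydes, went the other way, with 71.1, 76.8 and 60.8 FPKM in Liver-RE, against 24.3, 22.2 and 31.8 FPKM in KO (log2 difference 1.39 ± 0.17, SE; limma adjusted p = 0.00403).

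Over the whole list of xenobiotic P450 and conjugation genes, 4 of 32 tested were higher and 5 lower, with 7 and 4 under quantile normalization. The list median was -0.34, beside -0.12 over all genes, of which 0.691% were higher and 1.91% lower. Beyond the genes already named, Cyp2c55 had 2.29, 6.57 and 3.16 FPKM in Liver-RE, against 36.2, 31.4 and 42.4 FPKM in KO (log2 difference -2.99 ± 0.28, SE; limma adjusted p = 0.00117). Cyp2c29 was also lower, at 403 FPKM on average in Liver-RE and 1006 FPKM in KO, a call lost under both rescalings and without Liver-RE replicate 2 (0.0805) or 3 (0.0598) or KO replicate 1 (0.119) or 3 (0.0749). Of 7 Cyp3a genes tested, 0 passed the test in either direction. Cyp3a16, singled out after its values were seen, was high in 1 Liver-RE liver alone, with 0.145, 67.4 and 0.0964 FPKM in Liver-RE, against 0.121, 0.128 and 0.203 FPKM in KO, and 26.9, 70.4 and 50.8 FPKM in WT.

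Other genes among the 12 lowest included Loxl4, Serpina12, Raet1d and Raet1b. Loxl4, a lysyl oxidase that crosslinks collagen, had 0.784, 2.42 and 1.15 FPKM in Liver-RE, against 18.2, 20.8 and 19.9 FPKM in KO (log2 difference -3.13 ± 0.22, SE; limma adjusted p = 0.000156). Serpina12, the adipokine vaspin, had 0.856, 0.227 and 0.162 FPKM in Liver-RE, against 13.1, 18.8 and 14.2 FPKM in KO. Raet1d and Raet1b, ligands of an activating receptor of natural killer cells, were lower by 3.67 ± 0.21 and 2.72 ± 0.31 on the log2 scale (SE; limma adjusted p = 5.25e-05 and 0.00296 in the 6 libraries). Raet1d shares 35.7% of its 100-base windows with Raet1e, so its reads could be split. Raet1b was not among the transcripts compared. Its sharing with Raet1d was therefore not measured, and the values of Raet1b may not be separate from those of Raet1d. Among smaller differences, Aox3, an aldehyde oxidase, had 42.9, 31.1 and 42.1 FPKM in Liver-RE, against 108, 128 and 124 FPKM in KO (log2 difference -1.62 ± 0.17, SE; limma adjusted p = 0.00204).

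Of 27 clock genes tested, out of 30 in the table, 1 was higher and 2 were lower in Liver-RE, beside 0.691% and 1.91% of all genes tested. The counts were 1 and 2 after quantile normalization and 1 and 1 without the 20 most abundant genes, where Npas2 was lost. Nr1d2 (chromosome 14, 18204056 to 18239106), which encodes REV-ERB beta, had 9.27, 4.25 and 5.09 FPKM in Liver-RE, against 2.04, 1.46 and 1.69 FPKM in KO. The log2 difference was 1.35 ± 0.23 (SE, n = 3 each; limma adjusted p = 0.0192). WT livers, at 13.9, 16.4 and 12.5 FPKM, were above both. Npas2 (chromosome 1, 39193702 to 39363240), the partner that can replace CLOCK, had 0.592, 1.47 and 1.83 FPKM in Liver-RE, against 3.61, 4.98 and 5.40 FPKM in KO (log2 difference -1.33 ± 0.22, SE; limma adjusted p = 0.018). In WT it was near 0, at 0.0299, 0.142 and 0.0378 FPKM. Cry1 (chromosome 10, 85131700 to 85185054), a cryptochrome repressor, had 12.0, 11.2 and 8.98 FPKM in Liver-RE, against 20.0, 19.1 and 19.1 FPKM in KO (log2 difference -0.81 ± 0.14, SE; limma adjusted p = 0.0192). WT livers had 10.7, 12.8 and 12.0 FPKM, in the same range as Liver-RE.

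These 3 calls were near the threshold. Without KO replicate 1, 2 or 3 the limma adjusted p was 0.0607, 0.0597 and 0.0603 for Nr1d2, and it was 0.0949, 0.0591 and 0.0577 for Cry1. For Cry1 it was also 0.0681 without Liver-RE replicate 2, and for Npas2 it was 0.0538 and 0.0563 without KO replicate 2 or 3. Cry1 was also lost with the spread of all 36 or 54 libraries, and Npas2 and Nr1d2 with no filter. The promoter of Cry1 (chr10:85185005-85185304, minus strand, RefSeq, GRCm38.p6) is shown because it is the only called clock gene whose window held an E-box, the BMAL1 and CLOCK sequence, here in capitals. Of the 21 clock genes with a window, 14.3% held CACGTG, beside 12.1% of the genes tested with a window. The windows of Npas2, Cry1 and Nr1d2 held no ROR element. A match is not a measured binding site.
Cry1: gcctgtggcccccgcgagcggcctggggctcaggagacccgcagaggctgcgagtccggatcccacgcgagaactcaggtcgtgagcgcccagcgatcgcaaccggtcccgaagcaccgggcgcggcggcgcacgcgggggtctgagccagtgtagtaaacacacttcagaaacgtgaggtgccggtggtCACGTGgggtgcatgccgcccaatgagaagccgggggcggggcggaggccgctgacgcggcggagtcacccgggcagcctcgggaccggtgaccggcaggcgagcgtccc

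The remaining clock genes did not pass the test. Arntl itself had 7.64, 10.1 and 10.7 FPKM in Liver-RE, against 8.64, 8.70 and 8.74 FPKM in KO, and 4.75, 4.37 and 5.55 FPKM in WT (Liver-RE minus KO 0.10 ± 0.14 on the log2 scale, SE; limma adjusted p = 0.681). Its level per gene therefore does not check the KO label, since the missing part of the gene is not given. Nr1d1, for REV-ERB alpha, had 0.472, 0.458 and 1.42 FPKM in Liver-RE, against 0.285, 0.265 and 0.225 FPKM in KO (limma adjusted p = 0.184). Per3 had 4.91, 3.44 and 1.67 FPKM in Liver-RE, against 1.77, 1.39 and 1.23 FPKM in KO, with a slight overlap (limma adjusted p = 0.127). Clock had 7.54, 6.98 and 7.84 FPKM in Liver-RE, against 10.4, 10.03 and 11.4 FPKM in KO (log2 difference -0.46 ± 0.12, SE; limma adjusted p = 0.0732).

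**Figure D3:**
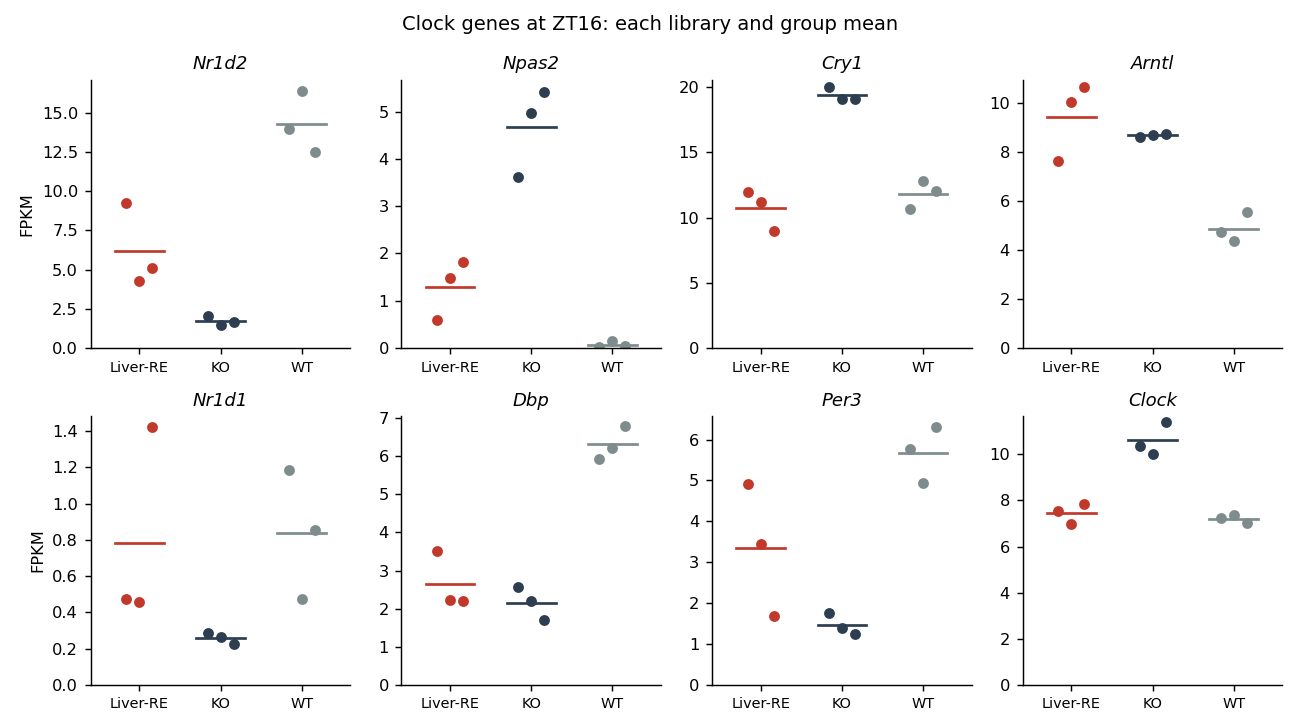
FPKM of 8 clock genes in each ZT16 library (points) with group means (bars), for Liver-RE, KO and WT. Nr1d2 lies above and Npas2 and Cry1 below KO in all 3 Liver-RE livers, while Arntl and Dbp overlap.

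The clock genes were also compared at the other harvest times. When the same 6-library comparison was made at each harvest time on the same genes, the numbers of clock genes higher and lower were 2 and 2 at ZT0, 6 and 6 at ZT4, 6 and 5 at ZT8, 2 and 2 at ZT12, 1 and 2 at ZT16 and 0 and 0 at ZT20. Of all genes tested, 0.691%, 2.32%, 3.07%, 2.83%, 2.6% and 0.564% passed at these times. The counts were not tested against each other, and 0 clock genes passed the test of ZT16 against the other times (5 higher and 3 lower at an unadjusted p under 0.05). The log2 difference of Dbp was 1.88, 3.76, 3.28, 1.43, 0.20 and 0.39 at ZT0, 4, 8, 12, 16 and 20. That of Nr1d1 was 2.67, 2.93, 1.43, 0.45, 0.46 and 1.67, and that of Nr1d2 was 2.23, 2.92, 2.69, 2.37, 1.35 and 1.87. The ZT16 difference of Dbp minus the mean of its other 5 differences was -1.95 ± 0.52 (SE, 36 libraries), with an unadjusted p of 0.000779 and a limma adjusted p of 0.273, so it did not pass the correction over all genes.

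Several chaperones and folding enzymes of the endoplasmic reticulum were lower in Liver-RE. When unfolded proteins build up in this compartment, sensors in its membrane induce such genes through response elements in their promoters. Of 21 genes tested on the unfolded protein and integrated stress response list, 7 were lower (Hspa5, Pdia4, Calr, Dnajb11, Manf, Creld2 and Hyou1) and 1 was higher (Trib3, a pseudokinase of the integrated stress branch). The list median was -0.59, beside -0.12 over all genes, of which 1.91% were lower and 0.691% higher. Creld2 (chromosome 15, 88819646 to 88826681), a folding factor resident in this compartment, had 9.79, 13.3 and 7.68 FPKM in Liver-RE, against 24.5, 29.3 and 26.6 FPKM in KO (log2 difference -1.33 ± 0.18, SE; limma adjusted p = 0.00787). Hspa5, the master chaperone BiP, had 232, 214 and 148 FPKM in Liver-RE, against 359, 423 and 407 FPKM in KO (log2 difference -1.02 ± 0.20, SE; limma adjusted p = 0.0329). WT livers did not sit with either group, at 271, 622 and 261 FPKM. Hyou1, a nucleotide exchange chaperone, had 33.6, 35.6 and 23.97 FPKM in Liver-RE, against 68.6, 75.8 and 66.0 FPKM in KO (log2 difference -1.17 ± 0.17, SE; limma adjusted p = 0.011). Calr, the calcium-binding chaperone calreticulin, had 231, 208 and 152 FPKM in Liver-RE, against 401, 445 and 356 FPKM in KO.

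The count of lower members depended on scaling and on single libraries. It was 3 with quantile normalization, 2 without the 20 most abundant genes and 0 when the spread was taken from all 36 Liver-RE and KO libraries. Leaving out Liver-RE replicate 1, 2 or 3 gave 9, 2 and 4 lower members, and leaving out KO replicate 1, 2 or 3 gave 1, 2 and 2. The limma adjusted p without a library other than Liver-RE replicate 1 was 0.0506 to 0.0992 for Hspa5 and 0.0502 to 0.118 for Calr, so these calls were lost without Liver-RE replicate 2 or 3 or any KO replicate. Creld2 passed without each of the 6 libraries, and Hyou1 passed without each but KO replicate 1 (limma adjusted p = 0.0548). At each of the other 5 harvest times 0 of the 21 genes passed the test in either direction, although the difference between ZT16 and those times was not past the threshold for any member. For Creld2 that difference was -0.93 ± 0.71 on the log2 scale (SE, 36 libraries; limma adjusted p = 0.611).

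The endoplasmic reticulum stress response element was searched on either strand as CCAAT and CCACG with any 9 bases between them. It was in the promoter window of 6 of the 19 list members with a window (31.6%), beside 0.174% of the 9186 genes tested with a window. The list was drawn up from genes of this response, so this share follows from its choice and is no result about Liver-RE and KO. No test was made, and a match is not a measured binding site. Of the 5 lower members with a window, 3 held the element, namely Creld2, Hspa5 and Calr, and of the 183 lower genes with a window 4 did. Their promoters are shown with the element in capitals, which in Creld2 and Calr reads on the other strand. The earlier run of 6 capitals in Calr is an E-box. They are Creld2 (chr15:88819396-88819695, plus strand), Hspa5 (chr2:34771840-34772139, plus strand) and Calr (chr8:84846882-84847181, minus strand), from RefSeq on GRCm38.p6.
Creld2: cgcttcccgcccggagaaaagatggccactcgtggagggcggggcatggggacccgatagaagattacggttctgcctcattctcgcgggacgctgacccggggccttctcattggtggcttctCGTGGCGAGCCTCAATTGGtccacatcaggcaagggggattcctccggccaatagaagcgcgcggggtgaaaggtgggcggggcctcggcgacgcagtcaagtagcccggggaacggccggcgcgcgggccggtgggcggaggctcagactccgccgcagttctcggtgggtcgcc
Hspa5: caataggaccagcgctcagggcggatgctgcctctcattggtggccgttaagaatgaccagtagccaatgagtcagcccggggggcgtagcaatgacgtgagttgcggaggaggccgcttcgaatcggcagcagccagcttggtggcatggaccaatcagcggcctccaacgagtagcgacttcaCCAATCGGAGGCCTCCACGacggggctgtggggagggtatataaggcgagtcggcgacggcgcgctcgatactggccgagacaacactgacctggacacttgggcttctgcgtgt
Calr: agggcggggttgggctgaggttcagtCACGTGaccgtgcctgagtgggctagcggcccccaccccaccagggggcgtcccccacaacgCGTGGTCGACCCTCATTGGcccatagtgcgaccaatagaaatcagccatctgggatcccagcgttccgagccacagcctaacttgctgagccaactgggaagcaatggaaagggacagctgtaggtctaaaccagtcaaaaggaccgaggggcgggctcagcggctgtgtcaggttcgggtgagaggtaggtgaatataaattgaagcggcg

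Igfbp1, G6pc and Trib3 were higher in Liver-RE. Of 19 genes tested on the insulin signalling and FOXO fasting list, 3 were higher and 0 lower, beside 0.691% and 1.91% of all genes tested. The list median was 0.29, beside -0.12 over all genes. Igfbp1 (chromosome 11, 7197787 to 7202546), a secreted binder of IGF peptides whose gene insulin represses, had 102, 141 and 195 FPKM in Liver-RE, against 15.8, 48.5 and 47.1 FPKM in KO (log2 difference 2.06 ± 0.41, SE; limma adjusted p = 0.0356). G6pc, the last enzyme of glucose release, had 105, 118 and 149 FPKM in Liver-RE, against 75.2, 72.8 and 64.2 FPKM in KO (log2 difference 0.79 ± 0.17, SE; limma adjusted p = 0.0467). Trib3 had 1.06, 1.51 and 1.55 FPKM in Liver-RE, against 0.204, 0.444 and 0.643 FPKM in KO. Ppp1r3g, a subunit that targets a phosphatase to glycogen, had 1.99, 4.43 and 1.67 FPKM in Liver-RE, against 0.0825, 0.0970 and 0.0723 FPKM in KO (log2 difference 1.70 ± 0.23, SE; limma adjusted p = 0.0076). Ppp1r3g passed under all 15 alternatives that tested it. The list count was 0 without Liver-RE replicate 2 or 3, 1 without KO replicate 1 or 2 and 2 without KO replicate 3. It was also 0 with no filter and with the spread of all 36 or 54 libraries. Without Liver-RE replicate 2 or 3 the limma adjusted p was 0.102 and 0.0799 for Igfbp1, 0.143 and 0.0821 for G6pc and 0.141 and 0.0896 for Trib3. Without KO replicate 1 or 2 it was 0.144 and 0.10002 for G6pc and 0.140 and 0.0896 for Trib3, and without KO replicate 3 it was 0.0517 for Igfbp1 and 0.128 for G6pc.

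Of 26 cholesterol synthesis genes tested, 0 were higher and 3 were lower in Liver-RE, beside 0.691% and 1.91% of all genes tested. The list median was -0.67 beside -0.12 over all genes, and 0 of 26 differences were positive, beside 3846 of 11871 over all genes. Msmo1, a methylsterol monooxygenase, had 74.2, 88.7 and 71.0 FPKM in Liver-RE, against 130, 225 and 229 FPKM in KO (log2 difference -1.27 ± 0.23, SE; limma adjusted p = 0.0253). The mevalonate enzymes Mvk and Mvd were lower by 1.02 ± 0.19 and 1.61 ± 0.35 on the log2 scale (SE; limma adjusted p = 0.0255 and 0.0497). Under both rescalings 0 of the 26 passed, with list medians of -0.42 and -0.42. Leaving out KO replicate 2 or 3 or Liver-RE replicate 2 also gave 0, leaving out Liver-RE replicate 1 or 3 gave 5 and 1, and leaving out KO replicate 1 gave 6. For Msmo1 the limma adjusted p was 0.0649 and 0.0572 without Liver-RE replicate 2 or 3 and 0.0685 and 0.0809 without KO replicate 2 or 3.

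Among other metabolic lists the calls were few, and of all genes tested 0.691% were higher and 1.91% lower. List medians were -0.27 for bile acids, 0.32 for fatty acid oxidation, 0.01 for fatty acid synthesis and -0.10 for acute phase genes. Of 24 genes tested in the urea cycle and amino acid list, 2 were lower, with a list median of -0.44 beside -0.12 over all genes. Cbs, which makes cystathionine, had 74.2, 94.8 and 119 FPKM in Liver-RE, against 252, 205 and 251 FPKM in KO (log2 difference -1.31 ± 0.20, SE; limma adjusted p = 0.0129). Oat, ornithine aminotransferase, had 100, 166 and 133 FPKM in Liver-RE, against 578, 236 and 457 FPKM in KO (limma adjusted p = 0.039). Both were lost under either rescaling, as were Hsd3b7, Cd36 and Ppard, given below, and Cp was lost with quantile normalization. Of 20 bile acid genes 2 were lower, Slco1a1 and Hsd3b7, an enzyme of bile acid synthesis, which had 117, 129 and 134 FPKM in Liver-RE, against 292, 245 and 210 FPKM in KO (log2 difference -0.96 ± 0.17, SE; limma adjusted p = 0.0218). Of 27 genes of fatty acid oxidation and PPAR alpha, 1 was higher, Acot3, and of 24 genes of fatty acid synthesis 0 passed (4 higher and 1 lower at an unadjusted p under 0.05). Cd36, a fatty acid transporter, had 26.3, 35.5 and 23.7 FPKM in Liver-RE, against 46.1, 51.3 and 49.4 FPKM in KO (limma adjusted p = 0.0478), a call lost without each library but Liver-RE replicate 2 (0.051 to 0.142). The nuclear receptor gene Ppard had 1.49997, 3.09 and 2.82 FPKM in Liver-RE, against 5.73, 5.29 and 7.57 FPKM in KO (limma adjusted p = 0.0274), a call lost without KO replicate 1, 2 or 3 (0.0949, 0.0524 and 0.0846). Of 21 acute phase and secreted genes 2 were higher, Saa1 and Saa4, and 1 was lower, Cp, the copper protein ceruloplasmin. Saa1, an acute phase apolipoprotein, had 26.8, 35.2 and 20.4 FPKM in Liver-RE, against 10.7, 7.07 and 7.09 FPKM in KO (log2 difference 1.60 ± 0.22, SE; limma adjusted p = 0.00715). Without Liver-RE replicate 2 or KO replicate 1 the limma adjusted p was 0.0546 and 0.0699 for Cbs, 0.0701 and 0.134 for Oat, 0.0863 and 0.105 for Hsd3b7, 0.122 and 0.168 for Saa4 and 0.0986 and 0.0823 for Cp. Oat was also lost without Liver-RE replicate 1 or 3 or KO replicate 3 (0.0544, 0.073 and 0.11), Hsd3b7 without KO replicate 2 (0.0554), Saa4 without Liver-RE replicate 3 or KO replicate 2 (0.0643 and 0.117) and Cp without KO replicate 2 or 3 (0.0554 and 0.0674).

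**Figure D4:**
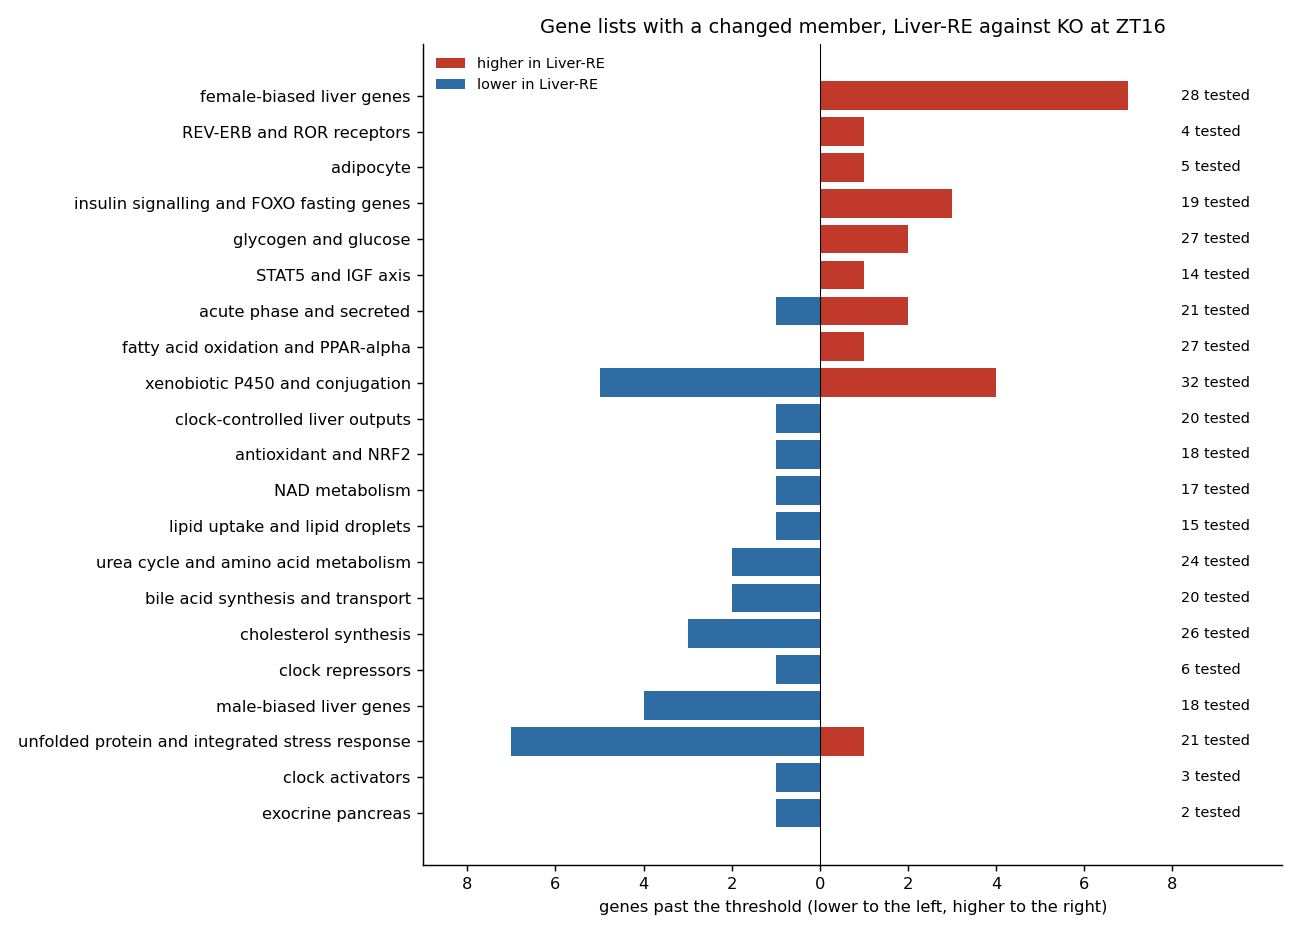
Number of genes past the threshold on each gene list with at least 1 changed member, lower in Liver-RE to the left and higher to the right, with the number tested beside each list. The female-biased list has 7 higher members and the unfolded protein list 7 lower members.

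To ask which of these differences belong to ZT16, the same comparison was set beside the other harvest times, whose libraries are separate. The numbers of genes called were 82 at ZT0 (0.691%), 276 at ZT4 (2.32%), 365 at ZT8 (3.07%), 336 at ZT12 (2.83%), 309 at ZT16 (2.6%) and 67 at ZT20 (0.564%). Of the ZT16 calls, 10.03%, 33.3%, 39.2%, 41.7% and 14.2% were also called in the same direction at ZT0, ZT4, ZT8, ZT12 and ZT20, which is 37.8%, 37.3%, 33.2%, 38.4% and 65.7% of the calls at those times, and 0 were called in the opposite direction. Called at all 6 times were 13 genes, among them Cyp2a4, Mme, Hectd2os, Loxl4 and Ndrg1. Ndrg1, a stress-responsive gene, averaged 4.81 ± 1.54 FPKM in Liver-RE and 28.4 ± 4.42 FPKM in KO at ZT16 (SD, n = 3 each). In contrast, 143 genes were called at ZT16 and at none of the other times, which by itself does not show that their differences vary with time.

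The difference was therefore tested directly, as the Liver-RE minus KO difference at ZT16 minus the mean of that difference at the other 5 times, in 36 libraries. With limma 0 of 11871 genes (0.0%) passed the threshold, while 1328 (11.2%) had an unadjusted p under 0.05. The smallest adjusted p was 0.0544, shared by 7 of the genes named here. Without the 20 most abundant genes 14 were called, and without Liver-RE ZT16 replicate 1 22 were called.

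Lhpp (chromosome 7, 132610615 to 132706420), a protein histidine phosphatase, differed at ZT16 and little at the other times. It had 9.43, 11.3 and 10.1 FPKM in Liver-RE at ZT16, against 33.7, 23.7 and 29.9 FPKM in KO (log2 difference -1.41 ± 0.15, SE; limma adjusted p = 0.00269), and 7.60, 12.8 and 13.3 FPKM in WT. At the other times its difference lay between -0.20 and 0.16. The contrast of ZT16 with those times was -1.38 ± 0.27 (SE; limma adjusted p = 0.0544). Gstm2 was lower at ZT4, ZT8, ZT12, ZT16 and ZT20, with log2 differences of -1.82, -1.87, -2.06, -3.14 and -2.18, and did not pass at ZT0 (-0.94, limma adjusted p = 0.344). This gave a contrast of -1.36 ± 0.27 (limma adjusted p = 0.0544).

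The other 5 genes at that adjusted p were Mpzl1, Rgs4, Tab2, Acot11 and Adrb3. Adrb3, a beta adrenergic receptor, had 0.937, 0.927 and 2.00 FPKM in Liver-RE, against 0.0204, 0.0114 and 0.0478 FPKM in KO, a log2 difference of 1.12 ± 0.17 (SE; limma adjusted p = 0.0143, and 0.0607 without KO replicate 1). At the other times its difference lay between 0.31 and 0.54. Rgs4, a regulator of G protein signalling, had 0.887, 1.27 and 1.70 FPKM in Liver-RE, against 0.324, 0.343 and 0.301 FPKM in KO (log2 difference 0.77 ± 0.14, SE; limma adjusted p = 0.0265). That call was lost without Liver-RE replicate 2 or KO replicate 1, 2 or 3 (0.0908, 0.0992, 0.0671 and 0.0749). For Mpzl1, Tab2 and Acot11 the ZT16 difference itself did not pass: the contrasts of 0.91 ± 0.17, 0.58 ± 0.12 and -1.35 ± 0.27 (SE) rest on the other times, where the difference averaged -0.65, -0.58 and 0.73. Acot11, an acyl-CoA thioesterase, stood at 1.36, 0.541 and 0.390 FPKM in Liver-RE and at 1.87, 1.48 and 1.59 FPKM in KO at ZT16, and was above KO by 0.11 to 1.25 on the log2 scale at the other times. Against ZT4 alone, the opposite hour, 1 gene passed: Tab2, an adaptor of inflammatory kinase signalling, with a difference of 0.90 ± 0.15 (SE; limma adjusted p = 0.0235).

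The other 5 of the 12 smallest p-values of this test belonged to Galnt15, Map4k4, Dsg1c, Ces2e and Anks4b. Dsg1c, a desmosomal cadherin, had 5.98, 3.98 and 7.31 FPKM in Liver-RE, against 0.917, 1.07 and 1.44 FPKM in KO (log2 difference 1.63 ± 0.19, SE; limma adjusted p = 0.00313), and passed without each of the 6 libraries. Its contrast with the other times was 1.25 ± 0.29 (SE; limma adjusted p = 0.188). Anks4b had 25.0, 18.5 and 18.3 FPKM in Liver-RE, against 36.8, 37.7 and 31.7 FPKM in KO (limma adjusted p = 0.0419), a call lost under both rescalings and without each library but Liver-RE replicate 1 (0.0753 to 0.165). Its contrast was -1.08 ± 0.26 (SE; limma adjusted p = 0.221).

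For Igfbp1 and Irs2 the sign of the difference varied with the hour, but neither passed this test. The Igfbp1 difference was 1.67, -1.78, -1.24, -0.84, 2.06 and 1.54 at ZT0, 4, 8, 12, 16 and 20, and the contrast of ZT16 with the rest was 2.19 ± 0.81 (SE; limma adjusted p = 0.369). Irs2, the insulin receptor substrate, had 6.33, 7.80 and 9.75 FPKM in Liver-RE, against 3.85, 4.55 and 6.12 FPKM in KO at ZT16, and its difference was -0.51, -0.84, -1.23, -0.92, 0.62 and -0.11 over the 6 times. Its contrast was 1.34 ± 0.34 (SE; unadjusted p = 0.000431, limma adjusted p = 0.246). At ZT16 both differences were positive, and at ZT4, ZT8 and ZT12 both were negative.

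**Figure D5:**
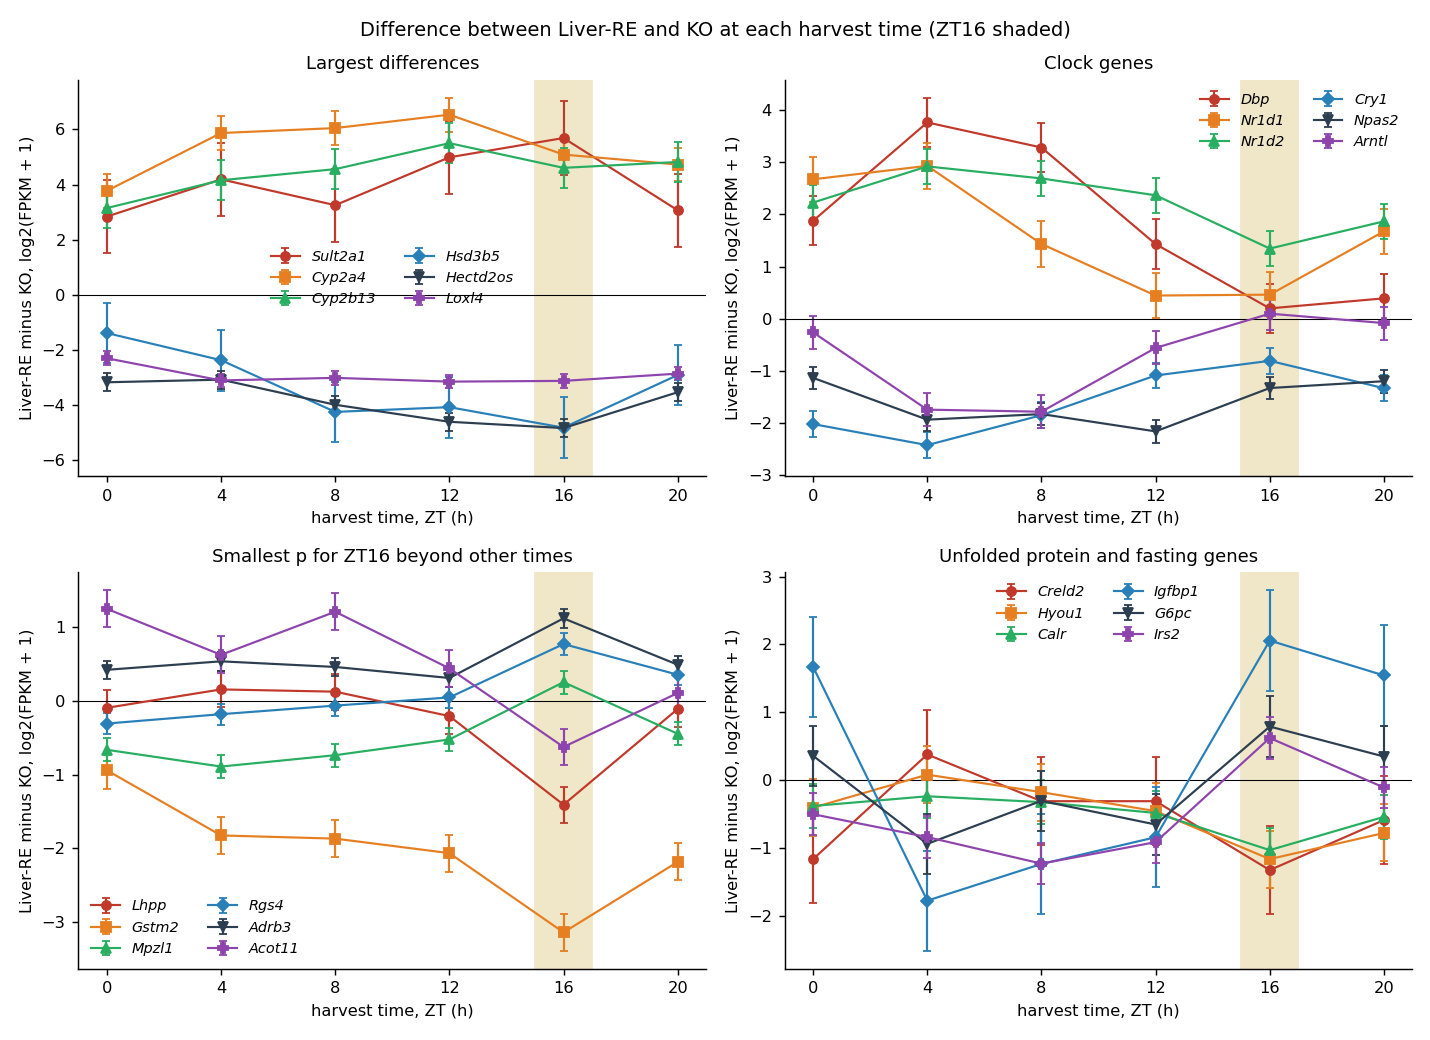
Difference between Liver-RE and KO (log2(FPKM + 1), with the SE from the 36-library fit) at each harvest time for 4 groups of 6 genes, with ZT16 shaded. Hectd2os and Loxl4 stay below 0 throughout, Dbp declines to 0.20 at ZT16, and Lhpp lies at -1.41 at ZT16 and between -0.20 and 0.16 at the other times.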

How the data were processed

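RNA from whole liver was sequenced as stranded, ribosomal RNA-depleted libraries (single-end reads of 100 cycles, per the labels' protocols), 3 mice for each of 18 combinations of genotype and time. CASAVA 1.8.2 and the mm10 build are listed in the submitters' processing notes, without their roles; no source used here names an aligner or counter. The deposited table holds 1 normalised value per gene and library. The authors deposited these values without a unit, and they are treated as FPKM because their smallest steps scale with transcript length; TPM with some genes removed was not excluded.

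Genes with a mean of at least 0.5 FPKM over the 6 ZT16 libraries were tested on log2(FPKM + 1) with limma 3.58.1 (R 4.3.3, trended empirical Bayes, Benjamini-Hochberg threshold 0.05). A gene near 0 in Liver-RE or in KO could meet this minimum through the other group alone. Fold changes are on the log2(FPKM + 1) scale, which understates those of low genes. A second limma fit on 36 libraries tested the ZT16 difference minus the mean of the other 5. P-values measure the spread between the 3 libraries of a group. The test was checked on simulated data drawn independently for each gene and library, without any effect shared by a whole library. That check therefore does not bear on the changes in the counts when a library was left out or the values were rescaled.

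The genes named are the clock lists, the 12 highest and 12 lowest called differences without overlap and with a mean of at least 1 FPKM in the higher group, up to 4 members per list with the smallest p, and the 12 smallest p of the second fit. Of the genes this rule names, those past a threshold are given, except 1 that is not reported here, and some of the others. Families, Gsta4, Cyp2a5, Cyp2b9, Cyp2c29, Hspa5, Manf, Pdia4, Ndrg1 and the genes with a motif were added after their values were seen. The members and lists were chosen with earlier results of these data known. Promoters and coordinates are from RefSeq (GRCm38.p6). Alternatives were another pseudocount and filter, rescalings, other library sets, a replicate block and leaving out each library.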

Additional observations from a re-analysis of the deposited data

How the results depend on the processing

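At ZT16, 82 genes were higher and 227 lower. With no filter the counts were 41 and 106, with quantile normalization 126 and 124, without the 20 most abundant genes 179 and 90, with the spread of all 54 libraries 160 and 888, and with that of the 36 Liver-RE and KO libraries 117 and 470. Leaving out 1 library gave 30 (without KO replicate 1) to 148 (without Liver-RE replicate 1) higher and 71 to 916 lower genes, by the same libraries. The cause was not tested. With a replicate block the counts were 122 and 324, and 284 of these 446 genes were among the 309; among the named genes G6pc, Mvd and Oat were lost (limma adjusted p = 0.0593, 0.0538 and 0.057), as was Manf. Same-numbered Liver-RE and KO libraries had correlations of deviations of -0.00115, 0.254 and 0.284, and differently numbered ones of -0.295 to 0.0902. Over all 36 Liver-RE and KO libraries the mean was 0.0606 for pairs of the same number and -0.0305 for pairs of different numbers. The labels do not say what a shared number stands for, and an effect of it was not tested. For the ZT16 difference beyond the other times, 0 genes were called, 14 without the 20 most abundant genes, 1 against ZT4 only, and 0 to 22 when a library was left out (22 without Liver-RE ZT16 replicate 1). Of the values of single genes recomputed, 1380 kept their side of the threshold, 192 were no longer past it, 51 came past it and 0 changed direction. With 3 libraries a group and an inferred unit, small differences of low genes were not resolved.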

Other observations

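On the stellate cell and fibroblast list 0 of 15 genes tested passed the limma test, with 4 higher and 1 lower at an unadjusted p under 0.05. Of the 15 differences 12 were positive, while that of the list member Lrat was -0.50 on the log2 scale. Col1a1, a fibrillar collagen chain on the same list, had 2.11, 5.84 and 5.45 FPKM in Liver-RE, against 1.81, 2.18 and 1.01 FPKM in KO, with a limma adjusted p of 0.103. Col1a2 had 4.93, 8.52 and 9.53 FPKM in Liver-RE, against 4.29, 5.10 and 3.25 FPKM in KO (limma adjusted p = 0.112). Liver-RE replicate 1 was the lowest of its group for both genes. The same library stood apart for the metallothioneins, which bind zinc and copper: Mt1 had 54.03, 486 and 560 FPKM in Liver-RE, against 69.1, 10.9 and 48.9 FPKM in KO. Mt2 had 14.3, 229 and 274 FPKM in Liver-RE, against 7.44, 1.201 and 10.8 FPKM in KO (limma adjusted p = 0.0742). These genes were chosen after their values were seen.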
